A study of Mus musculus with 4 samples.

Results

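The RNA of the collagen chains and of 15 interstitial matrix genes was followed in cultured mouse alveolar type II cells, the surfactant-making epithelial cells of the lung. The genes were chosen by name: every row whose Entrez identifier mapped to a symbol of the form Col, digits, a, digits (44 genes), and Fn1, Sparc, Dcn, Lum, Bgn, Eln, Fbln1, Fbln2, Postn, Tnc, Thbs1, Spp1, Lox, Loxl1 and Loxl2, which made 59 of 28096 rows. Polyadenylated RNA of 4 libraries was sequenced, all of the genotype label KRasEtv wt. The design text names 3 genotypes, each with a KRaswt/d12 allele and the RosaCreERT2 transgene. RosaCreERT2 is a recombinase that 4OHT, a form of tamoxifen, switches on, driven from the broadly active Rosa locus. The other alleles are Etv5loxp/loxp and Etv4KO/KO, and the labels do not state which genotype KRasEtv wt stands for. Cells were sorted as positive for EpCAM and negative for CD24, CD45, CD31 and Pdpn, and kept in matrigel with BEGM medium, with 100 nM 4OHT for 4 days and without it for 1 day. Age and sex of the mice are not given in the labels, and no contrast between conditions could be made here. The libraries carry no replicate number, so libraries 1 to 4 are names in accession order, and nothing ties a library to a single mouse. The p-values of single genes below therefore measure the spread between these libraries, which may be technical. Those of gene pairs test the difference between the genes within a library, with these libraries as the replicates.

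Collagens are secreted proteins whose chains wind into helical trimers. Fibrillar collagens bear the tension of the interstitium and are made mainly by fibroblasts, whereas type IV collagen forms the sheet-like network of the basement membrane on which the alveolar epithelium sits. Fibronectin, tenascin, thrombospondin, SPARC and osteopontin are secreted glycoproteins that bind cells or collagen and are known from tissue repair, and lysyl oxidases cross-link collagen and elastin outside the cell. Matrigel is itself rich in basement membrane protein, but protein of the gel is not measured by RNA sequencing.

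Levels are the authors' deposited size-factor-adjusted RPKM, written nRPKM, which are reads scaled for library size and gene length. Between 12133251 and 13591876 reads were counted per library, so a count of 0 allows up to 0.221 to 0.247 CPM, reads scaled to the library total (3 counts, counting error only). The libraries were not alike. Library 1 had the lowest summed level of 10 type II markers, at 9261 nRPKM against 15345 to 20659. Library 3 had the highest sum, of which Sftpc made up 14834 nRPKM. Library 3 was the only one with high Xist, the RNA of the inactive X chromosome, at 66.3 nRPKM against 0.255 to 0.784, and it had almost no read of the Y-linked Eif2s3y (0.243 against 14.6 to 23.2 nRPKM). Mitochondrial ribosomal RNA took 19.6% to 38.9% of counts, least in library 3. No library repeats another: for each pair, chi-square over the genes was 39.0 to 113 times its degrees of freedom.

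The sequences around the annotated starts of 6 of these genes are shown. They are the pair of type IV chains with the highest collagen levels, the matrix genes with the highest levels of all, and a pair of fibrillar chains that were both lowest in library 3. A relation of sequence to level was not tested. RefSeq windows on GRCm38.p6, from 250 bases before to 50 bases after a start, were at hand for 42 of the 59 genes. Col4a1 and Col4a2 lie head to head, and capitals mark the 78 bases that their windows share, read from opposite strands.

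Col4a1 (chr8:11312777-11313076, minus strand): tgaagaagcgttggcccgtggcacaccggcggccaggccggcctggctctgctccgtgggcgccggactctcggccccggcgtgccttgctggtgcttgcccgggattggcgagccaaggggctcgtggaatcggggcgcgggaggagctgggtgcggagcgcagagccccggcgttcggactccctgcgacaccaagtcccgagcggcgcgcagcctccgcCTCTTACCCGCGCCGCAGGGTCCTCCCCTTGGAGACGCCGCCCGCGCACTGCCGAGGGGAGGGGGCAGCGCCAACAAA

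Col4a2 (chr8:11312555-11312854, plus strand): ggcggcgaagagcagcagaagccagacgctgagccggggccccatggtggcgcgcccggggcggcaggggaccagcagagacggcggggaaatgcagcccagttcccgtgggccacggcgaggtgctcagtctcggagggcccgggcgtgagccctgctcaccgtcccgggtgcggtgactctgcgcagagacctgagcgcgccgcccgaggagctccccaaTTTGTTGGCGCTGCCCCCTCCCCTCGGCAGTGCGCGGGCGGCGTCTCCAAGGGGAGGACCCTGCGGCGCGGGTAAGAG

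The RefSeq first exons of this pair overlap by 22 bases, on opposite strands. In the next 4 windows capitals mark matches, on either strand, to 5 motifs. The TATA box was searched as TATAAA. The CCAAT box was searched by those letters, and the GC box, which zinc-finger activators bind, as GGGCGG. A motif of ETS factors, the family that the series is about, was searched as CCGGAAG alone, so other sequences that ETS factors bind were not counted. The AP-1 element, which reads alike on both strands, was searched as TGANTCA. No matches overlap in the windows shown.

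Sparc (chr11:55420031-55420330, minus strand): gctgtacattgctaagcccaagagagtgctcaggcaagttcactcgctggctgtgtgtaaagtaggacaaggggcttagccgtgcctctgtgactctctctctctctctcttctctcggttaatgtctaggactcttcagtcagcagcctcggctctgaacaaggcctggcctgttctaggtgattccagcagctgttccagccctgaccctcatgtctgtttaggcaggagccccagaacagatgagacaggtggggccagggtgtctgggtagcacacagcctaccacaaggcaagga

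Spp1 (chr5:104434861-104435160, plus strand): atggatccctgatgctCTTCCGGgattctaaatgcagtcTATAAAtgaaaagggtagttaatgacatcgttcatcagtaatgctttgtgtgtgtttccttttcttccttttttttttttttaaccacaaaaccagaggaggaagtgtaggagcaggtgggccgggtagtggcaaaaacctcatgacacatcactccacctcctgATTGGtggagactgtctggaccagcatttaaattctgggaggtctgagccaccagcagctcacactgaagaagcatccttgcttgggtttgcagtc

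Col1a2 (chr6:4505368-4505667, plus strand): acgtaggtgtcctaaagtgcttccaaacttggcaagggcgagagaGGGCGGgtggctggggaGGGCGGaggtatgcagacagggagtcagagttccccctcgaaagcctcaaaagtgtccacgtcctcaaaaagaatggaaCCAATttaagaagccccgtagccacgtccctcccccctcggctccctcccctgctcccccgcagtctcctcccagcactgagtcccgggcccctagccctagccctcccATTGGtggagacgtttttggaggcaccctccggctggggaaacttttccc

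Col3a1 (chr1:45311288-45311587, plus strand): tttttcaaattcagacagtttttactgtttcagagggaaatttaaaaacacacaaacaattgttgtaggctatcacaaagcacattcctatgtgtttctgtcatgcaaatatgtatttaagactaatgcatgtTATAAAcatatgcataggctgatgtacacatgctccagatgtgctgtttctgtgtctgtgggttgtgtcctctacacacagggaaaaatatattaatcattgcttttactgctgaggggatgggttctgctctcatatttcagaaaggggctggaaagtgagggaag

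None of the 5 motifs was found in the Sparc window. The upstream of the 2 Spp1 windows held matches to the TATA box, the CCAAT box and the ETS motif CCGGAAG, Col1a2 matched the CCAAT and the GC box, each at 2 places, and Col3a1 matched the TATA box alone. Matches were counted anywhere in a window. The TATAAA match lay at -211 from the start in Spp1 and at -117 in Col3a1. Col4a2 held the CCAAT box at 1 place and the GC box at 3, and Col4a1 held each of them at 1. Neither held a TATA box. Over all 32851 windows, the TATA box was found in 13.6%, the CCAAT box in 37.4%, the GC box in 35.7%, CCGGAAG in 8.86% and the AP-1 element in 7.81%. Of the 49 windows of these genes, 9 held the TATA box, 15 the CCAAT box, 28 the GC box, 1 CCGGAAG and 1 the AP-1 element. A match is a string of letters, not a site shown to be bound, and no binding was measured.

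The cells carried the RNA of alveolar epithelium and little of mesenchyme. All 10 type II markers had a mean of 1 nRPKM or more, led by Sftpc (10006 ± 3649), Sftpb (3065 ± 1133) and Slc34a2 (905 ± 330; SD, n = 4). Of 10 type I markers 9 did, led by Aqp5 (185 ± 15.6), Ager (156 ± 48.1) and Emp2 (116 ± 20.7). All 8 transitional epithelial markers did, led by Clu (378 ± 81.9), Krt19 (240 ± 75.1) and Krt18 (196 ± 71.7). Of 14 fibroblast and smooth muscle markers only Tagln did (2.02 ± 0.671), followed by Pdgfra (0.493 ± 0.406) and Acta2 (0.476 ± 0.0978). The summed level of the 14 was 3.99, 4.33, 2.60 and 4.01 nRPKM in libraries 1 to 4, and the fibroblast factor genes Tcf21, Twist1, Twist2 and Meox2 had 0 or 1 read in every library. Tagln, a large part of the sum, had 1.30, 2.88, 1.75 and 2.17 nRPKM, lowest in library 1. Pdgfra had 1.09, 0.284, 0.213 and 0.383, from 150, 34, 30 and 42 reads, highest in library 1 and lowest in library 3. In such bulk samples, fewer cells of a type and less RNA per cell cannot be told apart. None of 8 endothelial markers reached a mean of 1, and their sum lay between 0.238 and 0.908 nRPKM (highest Pecam1 at 0.112 ± 0.0625, Kdr at 0.0910 ± 0.0842 and Cdh5 at 0.0910 ± 0.0709).

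**Figure D1:**
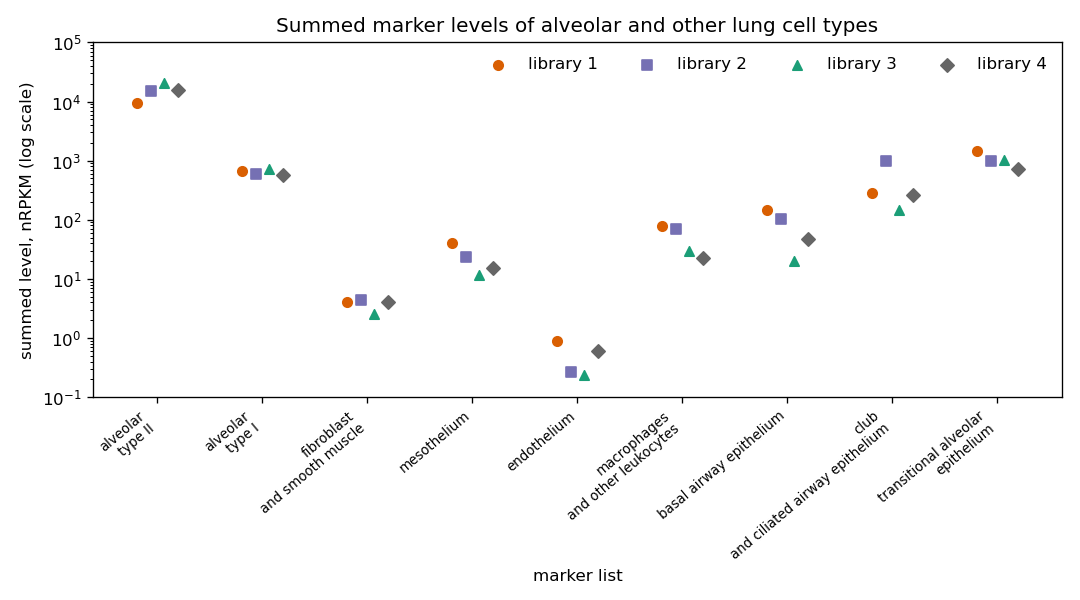
Summed level of the markers of each cell type (vertical axis, nRPKM, log scale) in the 4 libraries; each point is a library. Type II markers sum to 9261 to 20659 nRPKM and fibroblast and smooth muscle markers to 2.60 to 4.33, and basal and club markers have the widest ranges between libraries.

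Among the 59 genes chosen, the RNA in these cells was dominated by Sparc, osteopontin and type IV collagen, with fibrillar collagen far lower. A mean of 1 nRPKM or more was reached by 23 of the 59 genes (42.4% of all rows did), and at least 4 reads in every library were counted for 36 (52.2% of all rows). The 23 were 13 collagen chains and 10 other matrix genes. The median gene of the 59 had 0.292 nRPKM, against 0.345 over all rows. Only 8 had a mean of at least 10, and only Sparc and Spp1 had at least 100.

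**Figure D2:**
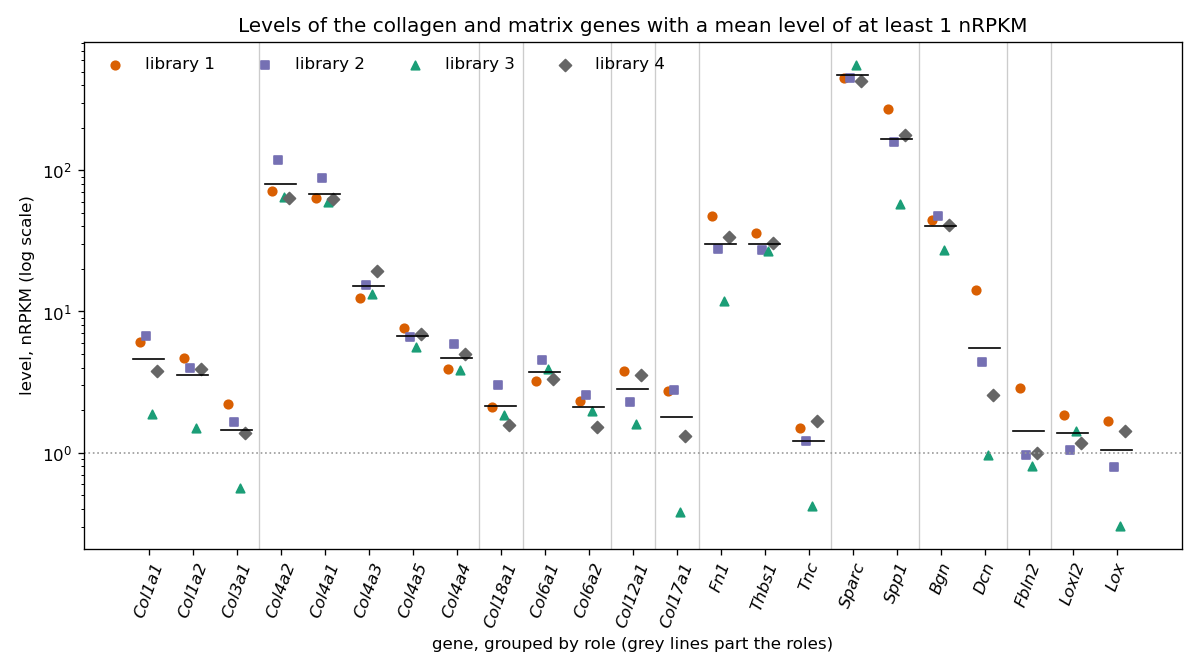
Level (vertical axis, nRPKM, log scale) of the 23 genes with a mean of at least 1, grouped by role, in each of the 4 libraries, with the mean as a bar. Sparc lies near 471 in all libraries, and library 3 lies under the others for the fibrillar chains, Fn1, Tnc, Spp1, Dcn and Lox.

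Sparc, a secreted collagen- and calcium-binding glycoprotein, had 454, 448, 553 and 429 nRPKM in libraries 1 to 4 (471 ± 55.6, SD, n = 4). Its highest library had 1.29 times the level of its lowest, the narrowest range of the 23. Spp1, which encodes osteopontin, a phosphoprotein that binds integrins, had 274, 160, 58.2 and 178 nRPKM (167 ± 88.3). Library 3 was far under the others and library 1 above them, so that Spp1 spanned 4.71-fold where Sparc spanned 1.29-fold. The annotated gene Gm42793 overlaps 18.75% of the exon bases of Spp1 on the same strand. Of the 50-base words of Spp1, 9.05% also occur in Gm42793, so the level of Spp1 is less certain, whereas Sparc has no shared word. Sparc alone made up 42.3%, 45.4%, 65.4% and 47.5% of the summed nRPKM of the 59 genes.

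Type IV collagen chains, which build the basement membrane network, were the highest collagens. Col4a2 had 71.8, 119, 65.0 and 63.6 nRPKM in libraries 1 to 4, and Col4a1, the other chain of the common network, had 63.4, 88.5, 59.6 and 62.4. Both stood highest in library 2 and were close together in the other libraries. Col4a1 had 0.881 ± 0.0994 times the level of Col4a2 and lay under it in 4 of 4 libraries. On the log2(nRPKM + 1) scale, used for each pair below, the difference was -0.19 ± 0.17 (SD, n = 4; exact permutation test by sign flips, two-sided, p = 0.125, adjusted over 6 pairs 0.15). No pair of genes can go below 0.125 with 4 libraries.

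The chains of the other type IV network, known from alveolus and kidney glomerulus, were present at lower levels. Col4a3 had 12.6, 15.4, 13.2 and 19.5 nRPKM, Col4a4 had 3.92, 5.86, 3.82 and 4.998, and Col4a5 had 7.66, 6.55, 5.57 and 6.95. Col4a3 and Col4a4 also mark type I cells, and each of the 3 genes stayed within 1.55-fold between its highest and lowest library. Col4a3 exceeded its head-to-head neighbour Col4a4 by 3.30 ± 0.531 times and in 4 of 4 libraries (log2 difference 1.51 ± 0.21; exact permutation test, n = 4, p = 0.125, adjusted 0.15). Col4a1 exceeded Col4a3 by 4.62 ± 1.07 times, again in 4 of 4 (log2 difference 2.10 ± 0.35; exact permutation test, n = 4, p = 0.125, adjusted 0.15). Sparc lay 7.09 ± 1.72 times above Col4a1 in 4 of 4 libraries (log2 difference 2.78 ± 0.35; exact permutation test, n = 4, p = 0.125, adjusted 0.15). Col4a6, the remaining chain of the family, had 0.472, 0.398, 0.330 and 0.618 nRPKM from 46 to 67 reads.

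**Figure D3:**
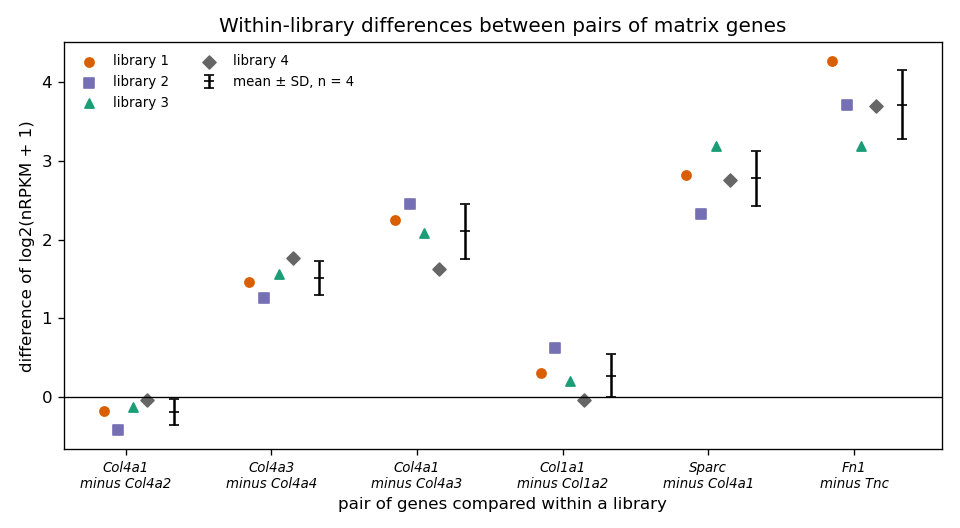
Difference of log2(nRPKM + 1) between the genes of 6 pairs within each library (points), with the mean and SD of the 4 libraries (bar). Col4a1 lies just under Col4a2 in 4 of 4 libraries, at -0.19 ± 0.17, and Col1a1 and Col1a2 are the only pair whose sign differs between libraries.

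The multiplexin Col18a1, a basement membrane collagen and the source of endostatin, had 2.09, 3.01, 1.84 and 1.58 nRPKM. Its relative Col15a1 rested on 11 to 26 reads (mean 0.185). Col18a1 was highest in library 2, as were Col4a1 and Col4a2.

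Fibrillar chains were expressed at a low level and only 3 of 11 reached a mean of 1. Col1a1 and Col1a2, the chains of type I collagen, had 6.04, 6.66, 1.88 and 3.79 nRPKM and 4.70, 3.98, 1.49 and 3.92 nRPKM in libraries 1 to 4. Col3a1, the type III chain of compliant tissue, had 2.20, 1.65, 0.558 and 1.39. All of them were lowest in library 3 and spanned 3.55-, 3.17- and 3.93-fold. Col1a1 had 1.30 ± 0.291 times the level of Col1a2 and was higher in 3 of 4 libraries (log2 difference 0.27 ± 0.27; exact permutation test, n = 4, p = 0.25, adjusted 0.25). The type V chains that set fibril width were lower still: Col5a2 had 0.887 ± 0.485 nRPKM, Col5a1 0.514 ± 0.290 and Col5a3 0.107, from 1 to 24 reads. The other fibrillar chains Col27a1, Col11a1, Col2a1, Col24a1 and Col11a2 had means of 0.0320 to 0.182 from 1 to 54 reads.

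Of the type VI chains, which form beaded filaments near basement membranes, Col6a1 had 3.20, 4.50, 3.93 and 3.30 nRPKM and Col6a2 had 2.33, 2.57, 1.96 and 1.53. The chain Col6a3 had 0.819, 0.816, 0.211 and 0.407, so that library 3 was low for it and not for its partners Col6a1 and Col6a2. Their alternatives to Col6a3, Col6a6, Col6a5 and Col6a4, had at most 14 reads, and Col6a4 had none. Among fibril-associated collagens, which sit on the surface of fibrils, Col12a1 had 3.78, 2.29, 1.60 and 3.54 nRPKM. The 8 others (Col16a1, Col20a1, Col9a3, Col14a1, Col9a1, Col22a1, Col19a1 and Col9a2) had means of at most 0.244 from 0 to 28 reads.

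Col17a1, the transmembrane collagen of hemidesmosomes, had 2.72, 2.79, 0.378 and 1.32 nRPKM, a 7.38-fold span with library 3 lowest. The other transmembrane chains Col23a1, Col13a1 and Col25a1 had at most 14 reads. Col7a1, which forms the anchoring fibrils of stratified epithelium, had a mean of 0.292 from 38 to 61 reads. Of the short-chain network collagens Col10a1 had 0.506 and Col8a1 0.495, and Col8a2 had 0 to 2 reads. No read was counted for Col9a2, Col6a4 or Col28a1, and Col26a1 had 9 reads in library 1 and at most 1 elsewhere.

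**Figure D4:**
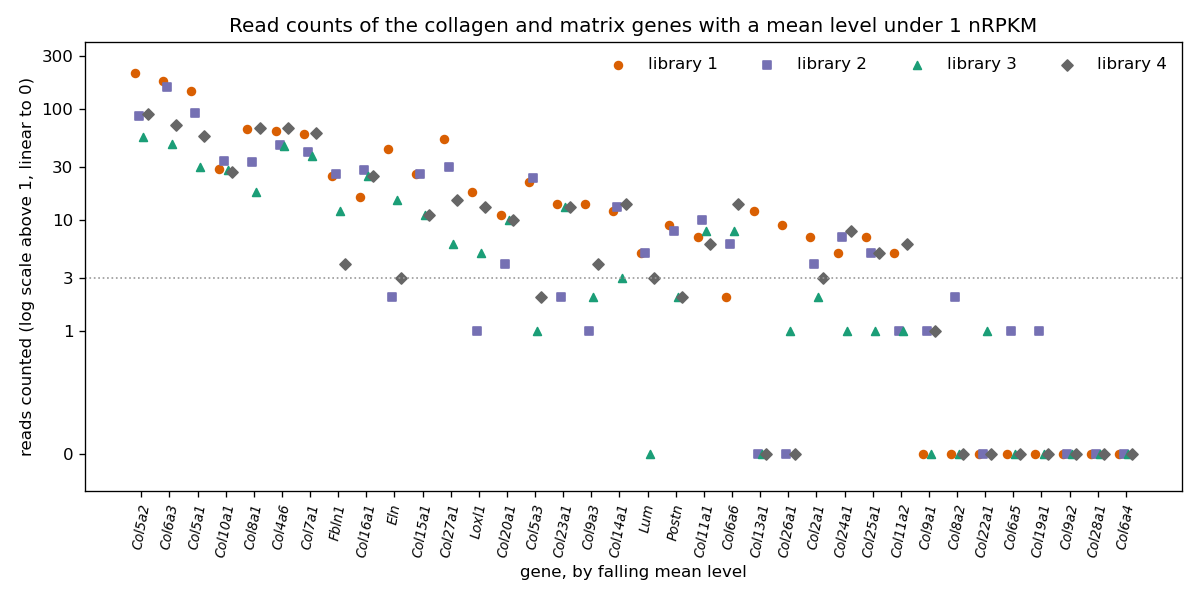
Reads counted in each library (vertical axis, log scale above 1 and linear to 0) for the 36 genes with a mean under 1 nRPKM, with a dotted line at 3 reads. Col5a2 has 56 to 210 reads, and Col9a2, Col28a1 and Col6a4 have none in any library.

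Among the adhesive glycoproteins, fibronectin and thrombospondin had like mean levels (30.2 ± 14.7 and 30.1 ± 4.20 nRPKM, SD, n = 4) and tenascin was scarce. Fn1 had 47.3, 27.9, 11.9 and 33.6 nRPKM in libraries 1 to 4. Thbs1, which encodes thrombospondin, an activator of latent TGF-beta, had 36.0, 27.2, 26.9 and 30.4. The same libraries thus spanned 3.98-fold for Fn1 and 1.33-fold for Thbs1. Tnc, a glycoprotein of wounds and developing lung, had 1.51, 1.21, 0.419 and 1.67 nRPKM, with library 3 under the rest as for Fn1. Fn1 exceeded Tnc by 25.7 ± 5.07 times in 4 of 4 libraries (log2 difference 3.71 ± 0.44; exact permutation test, n = 4, p = 0.125, adjusted 0.15). Postn, a marker of matrix-forming fibroblasts, had 2 to 9 reads.

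The small leucine-rich proteoglycans, which coat collagen fibrils, differed widely. Bgn had 44.1, 47.4, 27.2 and 41.2 nRPKM. Dcn had 14.1, 4.41, 0.962 and 2.56, from 601, 163, 42 and 87 reads. Bgn thus spanned 1.74-fold and Dcn 14.7-fold, the widest range of the 23 genes. Dcn stood highest in library 1 and lowest in 3, and still spanned 4.58-fold without library 1 and 5.52-fold without library 3. Lum, the gene of lumican and another of this family, had 5, 5, 0 and 3 reads.

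Of the 3 genes grouped here as elastic fibre genes, Fbln1 and Eln were near the limit of detection. This group leaves out Fbln5, Efemp2 and Fbn1, which were placed among the other interstitial matrix genes. Their means were 2.95, 4.98 and 1.46 nRPKM. Within the group Fbln2, a fibulin of basement membranes and elastic fibres, was the highest. It had 2.89, 0.969, 0.800 and 1.00 nRPKM, with library 1 above the rest and a span of 1.25-fold without it. Fbln1 had a mean of 0.261, and Eln, the gene of elastin itself, had 0.210, from 2 to 44 reads. Of the cross-linking enzymes, Loxl2 had 1.86, 1.04, 1.43 and 1.17 nRPKM and Lox had 1.67, 0.797, 0.305 and 1.43. Lox was lowest in library 3 and Loxl2 in library 2. Loxl1 had 1 to 18 reads. Of the 50-base words of Loxl2, 45.8% also occur in the annotated gene Gm21451, so its level is uncertain.

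Library 3 had the least RNA of most of these genes, by a wide margin for the fibrillar chains (3.17- to 3.93-fold under their highest library) and a small one for Col4a1, Col4a4 and Col4a5 (1.38- to 1.53-fold). Of the 23 genes with a mean of at least 1, 16 were lowest in library 3, where 18.4% of the 11904 genes at that level were. In turn 11 were highest in library 1 (22.5% of those genes). The highest library had at least 2 times the level of the lowest for 11 of the 23 (22.8%), and all 11 of these were lowest in library 3 (5.29% of genes met both conditions): Dcn, Col17a1, Lox, Spp1, Tnc, Fn1, Col3a1, Fbln2, Col1a1, Col1a2 and Col12a1. Without library 3, 4 of the 23 spanned 2-fold: Dcn (5.52), Fbln2 (2.99), Col17a1 (2.11) and Lox (2.10).

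**Figure D5:**
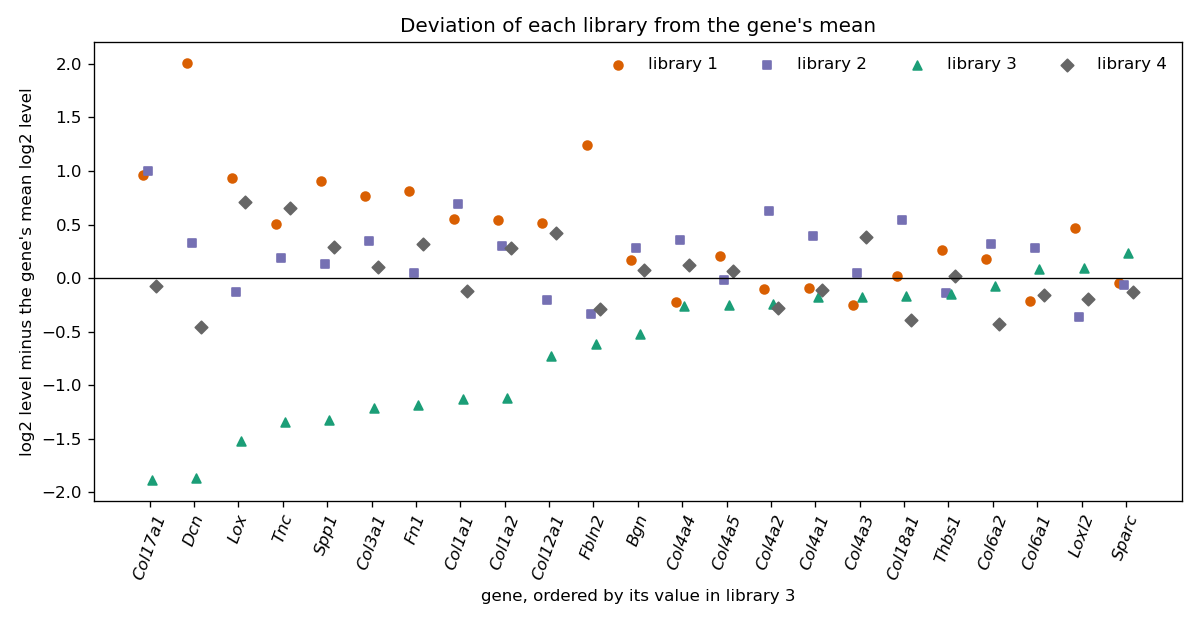
Log2 level of each library minus the gene's mean log2 level (vertical axis) for the 23 genes, ordered by library 3; each point is a library. From Col17a1 to Bgn library 3 lies under the other 3 libraries, and for Sparc, which spans 1.29-fold, it lies above them.

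Spread between libraries was also tested per gene over the whole table, as the ratio of a gene's quasi-dispersion to the trend over all genes. The filter on low counts left 32 of the 59 genes. None passed at an adjusted p under 0.05 (edgeR quasi-likelihood, Benjamini-Hochberg over 13156 genes, of which 0.0152% passed). The smallest adjusted p was that of Dcn, 0.231 in edgeR. At an unadjusted edgeR p under 0.05 there were 15 of the 32, where 5.13% of all tested genes were, and all 15 were lowest in library 3. These were the 11 genes just named and Col5a1, Col5a2, Col6a3 and Col8a1.

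By role, all 5 tested fibrillar chains were among the 15 and none of the 6 type IV chains was. The unadjusted edgeR p was 0.000131 for Dcn, 0.00138 for Col17a1, 0.00887 for Spp1, 0.00889 for Col1a1 and 0.0147 for Fn1. It was 0.908 for Sparc, 0.610 for Col4a1 and 0.251 for Col4a2. Without library 3, 2 of 34 tested genes had an unadjusted edgeR p under 0.05, Dcn (0.00117) and Fbln2 (0.0194), and 4.63% of all genes did. Without library 1, 13 of 32 had one, and 5.12% of all genes did. Without the filter on low counts edgeR called 2 of 56 genes, Dcn (adjusted p = 0.000900) and Col17a1 (adjusted p = 0.0274), where 0.321% of genes were called. DESeq2 marked the same genes, Dcn and Col17a1, as dispersion outliers (0.345% of genes), and did so too when run on the 13156 genes of the edgeR filter, 32 of them matrix genes (0.471% of genes), a setting added after seeing the data.

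Markers of other cells also differed between the libraries. Basal airway epithelium markers, of cells that carry Col17a1 in hemidesmosomes, summed to 144, 102, 20.01 and 46.7 nRPKM in libraries 1 to 4, lowest in library 3 as Col17a1 was. Of the 5, 3 had a mean of at least 1 (Krt5 34.0 ± 27.3, Krt6a 23.9 ± 16.1 and Krt14 19.3 ± 13.1), and the lineage factor gene Trp63 had 0.577 ± 0.404. Mesothelial markers summed to 39.9, 23.1, 11.7 and 15.2, with 2 of 6 at 1 or more (Upk1b 11.3 ± 7.35 and Msln 10.9 ± 5.34), Gpm6a next at 0.119 ± 0.0828 and the defining gene Upk3b at 0 reads. These lists and the fibroblast list were lowest in library 3, as were the fibrillar chains, Dcn and Fn1, and their part in those levels was not tested. The type II markers summed to the most in library 3 (20659 nRPKM, of which Sftpc made up 14834) and the least in library 1 (9261). Sftpc, Sftpd and Napsa were highest in library 3. Sftpb, Sftpa1, Abca3 and Nkx2-1 were highest in library 2, and Lamp3, Slc34a2 and Lpcat1 in library 4. Each of the 10 type II markers was lowest in library 1. Transitional epithelial markers summed to 1436, 989, 1012 and 725, highest in library 1, where 11 of the 23 matrix genes were highest. Their part in the levels of these libraries was not tested either.

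Markers of macrophages and other leukocytes, among which macrophages are a known source of Spp1 and Fn1, summed to 78.4, 69.4, 29.3 and 22.5 nRPKM. The sort kept cells negative for CD45, the product of Ptprc and a surface protein of leukocytes, and its purity was not tested here. Of the 12, 7 had a mean of at least 1, led by Cd68 (21.7 ± 10.98), Fcer1g (8.64 ± 5.94) and Tyrobp (6.03 ± 4.53), while Ptprc had 0.422 ± 0.193, Csf1r 0.409 ± 0.09997 and Adgre1 0.236 ± 0.0744. Library 4 was lowest for the sum, as for Cd68, Fcer1g, Tyrobp, Laptm5 (0.947), Csf1r (0.317) and Adgre1 (0.151). Library 3 was lowest for Marco (2.04), Mrc1 (0.916), Itgax (0.308) and Ptprc (0.245), as it was for Spp1 and Fn1. Club and ciliated markers, led by Scgb1a1 (350 ± 358), Cyp2f2 (32.4 ± 15.7) and Sec14l3 (26.4 ± 10.3), with 5 of 6 at 1 or more, summed to 284, 969, 148 and 265, highest in library 2 as were Col4a1 and Col4a2. Scgb1a1 made up 880 nRPKM of the sum in library 2. Scgb3a2 and Cyp2f2 were also highest there, whereas Sec14l3 and Foxj1 were lowest there and Ccdc39 was highest in library 4. The part of the leukocyte, club and ciliated markers in the matrix levels was not tested.

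The machinery that folds and processes collagen was well expressed. Of 27 measured genes, 20 reached a mean of 1 nRPKM (42.4% of all rows did) and 24 had 4 reads or more in every library (52.2% of all rows). P4hb, a disulfide isomerase and subunit of collagen prolyl hydroxylase, had 173, 159, 250 and 238 nRPKM, Ppib, a prolyl isomerase, had 119, 79.1, 152 and 94.97, and Serpinh1, the collagen chaperone, had 23.3, 25.7, 23.2 and 19.96. Of the 20 genes at a mean of at least 1, 3 were lowest in library 3, where 18.4% of all genes at that level were. P4hb, Ppib and Serpinh1 were not among the 3. Of 23 tested genes none passed the edgeR test after adjustment and 4 had an unadjusted p under 0.05, where 5.13% of all tested genes did. The N-propeptide proteases of fibrillar procollagen, Adamts2, Adamts3 and Adamts14, were scarce at 0.0285, 0.239 and 0.0475 nRPKM, while Bmp1, the C-propeptide protease, had 8.73 ± 0.665.

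Receptors for these matrix proteins were also present. Of 19 genes, 14 had a mean of at least 1 nRPKM (42.4% of all rows did), led by Sdc4 (109 ± 28.1), Itgb1 (76.3 ± 13.7) and Itga9 (51.7 ± 12.8; SD, n = 4). Of the collagen receptors, Itga2 had 22.8 ± 7.90, Itga1 1.35 ± 0.444 and Ddr1 3.34 ± 0.772, against 0.671 ± 0.192 for Ddr2, 0.144 ± 0.0313 for Itga11 and 0.311 ± 0.0761 for Itga10. Receptors of fibronectin and osteopontin included Itgav (20.1 ± 2.87), Itgb6 (22.5 ± 4.73), Itga5 (5.28 ± 1.87) and Cd44 (44.5 ± 2.07). None of 17 tested receptor genes had an unadjusted edgeR p under 0.05, where 5.13% of all tested genes did. Of the 14 with a mean of at least 1 nRPKM, 6 were lowest in library 3, Itga2 and Itga5 among them. Of all genes at that level, 18.4% were lowest there.

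Other interstitial matrix genes followed the pattern of low levels. Of 31, 8 had a mean of at least 1 nRPKM (42.4% of all rows did), led by Ecm1 (18.9 ± 8.19), Ltbp3 (11.5 ± 1.22) and Efemp1 (8.48 ± 2.25; SD, n = 4), and no read was counted for Vtn. Fbn1, the microfibril gene fibrillin, had 2.22, 1.08, 0.593 and 1.95 nRPKM and Vcan, a large proteoglycan, had 1.44, 1.12, 0.432 and 1.495. Both were lowest in library 3, and 4 of the 8 were, where 18.4% of all genes at that level were. Of 17 tested, 5 had an unadjusted edgeR p under 0.05, where 5.13% of all tested genes did, and none passed after adjustment.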

How the data were processed

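Per the file headers, the deposited counts are of reads aligned uniquely to each gene model, and the deposited RPKM is adjusted by a size factor (nRPKM). Per the submitters' processing notes, GSNAP and mm9 were used; annotation, strand use and versions were not stated there. All values of nRPKM (100% of genes read in every library, relative tolerance 1e-06) equalled the count divided by a library scale and a constant of the gene. That this constant is the gene length was not checked. TMM scaling would shift a library by at most 0.0125 log2 units. Reads that align to several places are not in these counts.

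Symbols came from RefSeq GRCm38.p6 by Entrez identifier (25035 of 28096 rows). Shared 50-base words were computed on GENCODE transcripts of GRCm38, and exon overlap on the GENCODE annotation. Spread was tested with edgeR 4.0.16 in R 4.3.3 (TMM, filterByExpr, intercept-only quasi-likelihood fit, ratio of quasi-dispersion to trend against F, Benjamini-Hochberg at 0.05), which was tested on simulated data, and with DESeq2 1.42.0 as an alternative. Gene pairs were compared on log2(nRPKM + 1), which understates differences of low genes, with exact permutation tests by sign flips, two-sided, in Python 3.11.15.

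Genes with a mean of at least 1 nRPKM are named with every library's value, the others within their role, and the 3 highest of each further list. The 59 genes and all lists were chosen with earlier results of these data known. Other named genes were chosen after their values were seen. Col21a1 and Mia3 were not analysed here. Alternatives were the scaling, filters, thresholds, pseudocount, length correction and leaving out each library.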

Additional observations from a re-analysis of the deposited data

Results flagged for a closer look

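In 4 of 41 quantities examined, a single library lay far from the other 3 (its gap to the nearest, divided by the whole range, exceeded the 95% critical value of Dixon); chance alone gives about 1 in 20. Library 2 stood above the rest for both chains of the common type IV network, Col4a1 (gap ratio 0.871; 88.5 against 59.6 to 63.4 nRPKM) and Col4a2 (0.852; 119 against 63.6 to 71.8). These neighbouring genes are not independent of each other. It also stood above the rest for the summed club and ciliated airway markers (0.835; 969 against 148 to 284 nRPKM), a sum of which Scgb1a1 made up 880 nRPKM in library 2. Library 1 stood above the rest for Fbln2 (0.904; 2.89 against 0.800 to 1.00 nRPKM).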

How the results depend on the processing

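The direction of all 6 pairs was the same with a pseudocount of 0.1, with TMM library sizes, in CPM without length correction and without each library, though none of these tests could pass the threshold with 4 libraries. Without length correction Sparc exceeded Col4a1 by 1.27 log2 units in place of 2.78. The count of genes called for spread, 0, became 2 in edgeR without the filter on low counts. It was also 2 with DESeq2 outliers, both over the unfiltered genes and over the genes of the edgeR filter, the latter added after seeing the data. It was 0 with DESeq2 size factors in edgeR and 0 whichever single library was left out. The 15 genes at an unadjusted edgeR p under 0.05, a count added after seeing the data, became 2 without library 3 and ranged from 2 to 15 over the libraries left out, and 20 without the filter. The 11 genes with a 2-fold range became 3 with means of 5 nRPKM or more and 33 with a read in every library as the sole filter, and ranged from 5 to 11 when a library was left out (5 without library 3, with the level filter applied anew). The counts of 23 expressed and 36 detected genes moved by less than 1.5 times in all their alternatives (17 to 27 and 32 to 48). The 16 genes lowest in library 3 were 16 with TMM. No paired analysis was possible because the labels give no replicate numbers and there is a single group. Genes with fewer than 4 reads in a library, 23 of 59, cannot be told from absent there at this depth, and 27 of 59 were not tested by edgeR.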

Other observations

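Several genes with a mean under 1 nRPKM had few reads in some libraries and more in others, and were chosen here after their counts were seen. Eln, the gene of elastin, had 44, 2, 15 and 3 reads in libraries 1 to 4, and the elastic fibre enzyme Loxl1 had 18, 1, 5 and 13. Col5a3 had 22, 24, 1 and 2, and Col27a1, a fibrillar chain of cartilage, had 54, 30, 6 and 15. All 12 reads of Col13a1 were in library 1. The counts of Eln were above 3 in libraries 1 and 3, whereas those of Col5a3 were above 3 in libraries 1 and 2, so these low genes did not share an order of the libraries.

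Of the 20 collagen-processing genes with a mean of at least 1 nRPKM, 3 were lowest in library 3: Plod2, Pcolce and Pcolce2. Of all genes at that level, 18.4% were lowest there. Plod2, the lysyl hydroxylase of collagen telopeptides, had 5.59, 2.47, 1.60 and 4.13 nRPKM, and Pcolce, an enhancer of procollagen processing, had 14.6, 9.74, 5.21 and 7.85, both lowest in library 3. P3h2, a prolyl hydroxylase that acts on type IV collagen, had 5.76, 6.74, 9.58 and 13.6, with library 1 lowest.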
